A study of Equus caballus with 12 samples.

Results

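The table of normalized small RNA read counts from horse lung, heart and liver holds 5 entries named miR-34 or miR-449, of 294 rows with a miRNA name of the horse and 629 rows in all. They were taken by name, as every row called miR-34 or miR-449 with any letter or arm. Of these, eca-miR-34b-5p, eca-miR-34c, eca-miR-449a and eca-miR-449b are known from multiciliated cells, and eca-miR-34a served as the contrast within the family. Other arms and letters of the family were not analysed here. The samples came from 4 healthy Polish cold-blooded stallions aged 1 to 2 years, numbered 27, 30, 32 and 34, which were sampled at slaughter and had no experimental treatment. Each horse gave 1 library from the caudal lobe of the right lung, 1 from the left ventricle of the heart and 1 from the right lobe of the liver, so that each tissue had 4 libraries. These are bulk pieces of organs, and whether the lung pieces held large airways is not given in the sources used here. In such samples, fewer cells of a type and less RNA per cell cannot be told apart.

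The miR-34 and miR-449 families share their seed, the short stretch near the start of a miRNA that pairs with its targets, so they can act on many of the same messenger RNAs. In airway, oviduct and brain ventricle, miR-34b, miR-34c and miR-449 are known to accumulate as cells grow multiple motile cilia. There they repress Notch signalling and CP110, a centriolar protein that blocks the growth of cilia. miR-34a is known as a direct target of the tumour suppressor p53 and is found in most tissues. Whether p53 also acts on the other entries was not examined here. In the horse annotation of RefSeq (assembly TB-T2T, used for names and neighbours only, since the files were made on another build), MIR34B and MIR34C lie together within the span of HOATZ, a gene linked to cilia and flagella, between BTG4 and LAYN. MIR449A and MIR449B lie within CDC20B, beside MCIDAS and CCNO, which encode multicilin and cyclin O, regulators of the multiciliated state. MIR34A lies in no protein-coding gene, between H6PD and GPR157.

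The deposited values are DESeq2-normalized counts, in each library whole multiples of 1 step, and from that step the reads behind them were derived. The reads in the table numbered 3536536 to 7560746 in lung, 8113895 to 9355513 in heart and 3066869 to 8595569 in liver, with the fewest in the liver of horse 27 and the lung of horse 34. The lowest value above 0 stood for 6 reads, which is 3.71 to 11.1 normalized counts depending on the library. A value listed at 0 thus stands for fewer than 6 reads or for an entry that was not counted: miR-103, which is abundant in most tissues, was listed at 0 in the lung of horse 34 and the heart of horse 27 and at 11805 to 50230 in the other 10 libraries. The tissues matched their labels, since the summed striated muscle miRNAs were at least 5460480 in every heart library and at most 12572 in any other. The summed hepatocyte miRNAs were at least 1343170 in every liver library and at most 280526 elsewhere.

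miR-34c was the most abundant of the 5 entries in every lung library. In lung it stood at 14934, 18884, 28972 and 43877 normalized counts in horses 27, 30, 32 and 34, and ranked between 19 and 39 among the known miRNAs of each library. In heart it stood at 308, 17.8, 38.0 and 281.0 in the same order, and in liver at 0, 82.9, 27.2 and 59.4. Every lung value lay far above every heart and liver value, and within heart the libraries of horses 27 and 34 were high and those of horses 30 and 32 low.

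The lung mean of miR-34c, 26667 ± 12906 normalized counts (SD, n = 4), was 165-fold the heart mean of 161.3 ± 154.6 (SD, n = 4). On the scale of log2(normalized count + 1), the lung level was 8.10 above heart (SE 1.33, adjusted p = 0.000425, limma with Benjamini-Hochberg adjustment over 256 tested miRNAs) and 10.30 above liver (SE 1.33, adjusted p = 4.61e-05). Calls required an adjusted p under 0.05 together with a change of 1 or more on the log2 scale in either direction. With each library or horse left out in turn, the difference from heart ranged from 7.35 (without the heart of horse 30) to 8.93 (without horse 27), with a highest adjusted p of 0.0114 (limma, without horse 32), and that from liver from 8.87 (without the liver of horse 27, listed at 0) to 11.13.

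**Figure D1:**
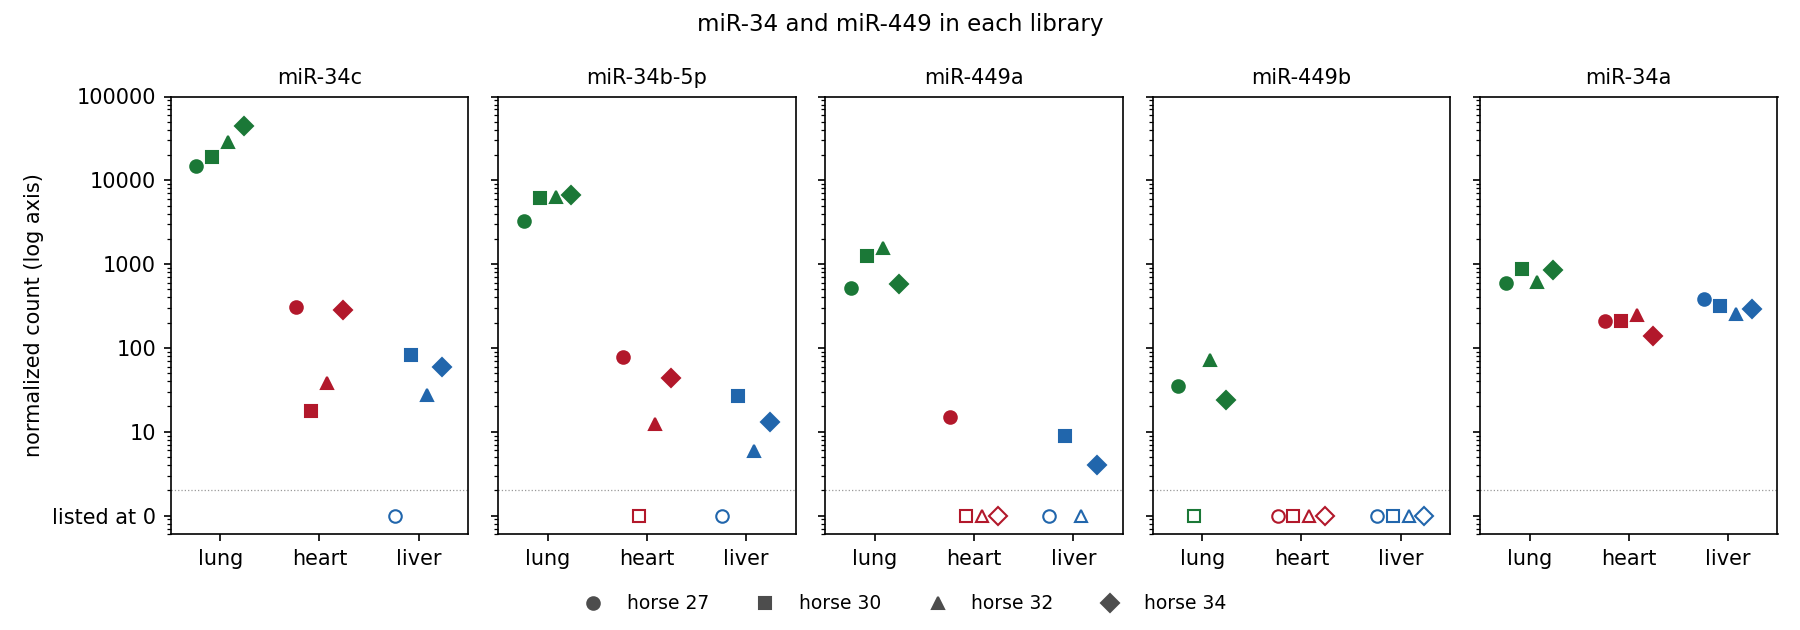
Normalized count (log axis) of each of the 5 entries in each library, by tissue, with 1 symbol per horse and open symbols on the bottom line for values listed at 0. For every entry but miR-449b the 4 lung values lie above all heart and liver values, and miR-34a alone is above 0 in all 12 libraries.

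miR-34b-5p, which is made from the same transcript as miR-34c, followed it at a lower level. In lung it stood at 3275, 6085, 6276 and 6733 normalized counts in horses 27, 30, 32 and 34 (mean 5592 ± 1569, SD, n = 4). In heart it stood at 78.3, 0, 12.3 and 43.7, and in liver at 0, 26.6, 5.87 and 13.2. Again no heart or liver value came near a lung value, and the libraries highest outside lung were the same as for miR-34c, the hearts of horses 27 and 34 and the liver of horse 30.

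miR-34b-5p was called higher in lung than in heart by a log2 fold change of 8.51 (SE 1.30, adjusted p = 0.000229, limma) and higher than in liver by 9.55 (SE 1.30, adjusted p = 6.23e-05). Both estimates lean on the values listed at 0, and when those were raised to the lowest value listed in their library they became 7.69 and 8.65, with both calls kept. With libraries or horses left out in turn, the difference from heart ranged from 7.16 (without horse 30) to 9.56 (without horse 27), and it was 7.22 without the heart of horse 30, the library listed at 0. The difference from liver ranged from 8.60, without the liver of horse 27, to 10.19, without the liver of horse 30.

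miR-449a, from the CDC20B locus, was present in all lung libraries at a lower level again. Its lung values were 513.0, 1234, 1557 and 582.7 normalized counts in horses 27, 30, 32 and 34 (mean 971.6 ± 507.6, SD, n = 4). In heart it was listed at 14.9 in horse 27, which is 12 reads, and at 0 in the other horses. In liver it was listed at 8.85 in horse 30 and 3.96 in horse 34 and at 0 in the other 2 libraries. The lung horses with the highest miR-449a, 30 and 32, were not the horse with the highest miR-34c, which was horse 34.

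The difference of miR-449a between lung and heart was 8.77 (SE 1.02, adjusted p = 2.38e-05, limma), and between lung and liver 8.36 (SE 1.02, adjusted p = 3.16e-05). With the values at 0 raised to the lowest listed value, the differences were 6.34 and 6.86, both still called. The size of this change therefore depended on how the unlisted libraries were read, while the call did not. Without the heart of horse 27 the difference from heart was 9.77, and without the liver of horse 30 the difference from liver was 9.0.

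miR-449b, the neighbour of miR-449a, was the least abundant entry. It stood at 35.4, 0, 72.3 and 23.8 normalized counts in the lungs of horses 27, 30, 32 and 34, with 44 reads in horse 27 and 21 in horse 34, and was listed at 0 in all heart and liver libraries. The lung of horse 30 was at 0 although that library was among the deeper lung libraries and held the second highest miR-449a value. miR-449b did not reach 10 normalized counts in 4 libraries and was left out of the fit across miRNAs. An exact two-sided permutation test of 4 lung against 4 heart or 4 liver libraries gave p = 0.143, where the smallest p that this design allows is 0.0286, so the difference did not pass the test. In the fit without a filter on low values, the log2 difference of 4.0 (SE 1.05) had an adjusted p of 0.00938 against heart and 0.00722 against liver (limma). That fit pools the spread over the tissues, and heart and liver, with all values at 0, add none. Its SE therefore understates the spread between lungs.

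miR-34a had another distribution. Its lung values were 602.4, 881.7, 604.8 and 857.6 normalized counts in horses 27, 30, 32 and 34 (736.6 ± 153.9, SD, n = 4). Its heart values were 211.3, 211.0, 243.7 and 138.0 (201.0 ± 44.7), and its liver values 388.5, 320.2, 252.6 and 291.9 (313.3 ± 57.3). It was read in every library, and each tissue kept within a narrow range.

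The lung mean of miR-34a was 3.66-fold the heart mean and 2.35-fold the liver mean. The log2 differences were 1.87 from heart (SE 0.249, adjusted p = 7.24e-05, limma) and 1.22 from liver (SE 0.249, adjusted p = 0.00144), and both were called, with ranges of 1.62 to 2.06 and 1.12 to 1.42 when libraries or horses were left out. The heart level was 0.65 below the liver level on the log2 scale (SE 0.249, adjusted p = 0.0453), which lies under the fold minimum. That last difference depended on the scaling, since it was -1.84 (adjusted p = 0.000444) with all libraries rescaled to the same total and -0.42 (adjusted p = 0.229) with the same upper quartile. Rescaling to the same total also shifted the median log2 fold change over all miRNAs by 1.18 for lung over heart and by -1.13 for heart over liver. Relative to that median, miR-34a lay 0.42, 0.47 and 0.40 lower in heart than in liver under the 3 scalings.

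The 4 entries that were tested, all but miR-449b, were thus called higher in lung in both comparisons. Of all 256 tested miRNAs, 19.5% were called higher in lung and 19.1% higher in heart in the first comparison, and 25.0% were called higher in lung and 26.6% higher in liver in the second. The lung values of the same 4 entries did not overlap with those of heart or of liver, as held for 22.7% of tested miRNAs against heart and 25.8% against liver. miR-34c and miR-34b-5p would have passed the filter on low values from their heart and liver libraries alone, miR-449a passed it through its lung libraries, and miR-449b did not pass it, so the count does not stand for the family as a whole. The 2 comparisons share the lung libraries.

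**Figure D2:**
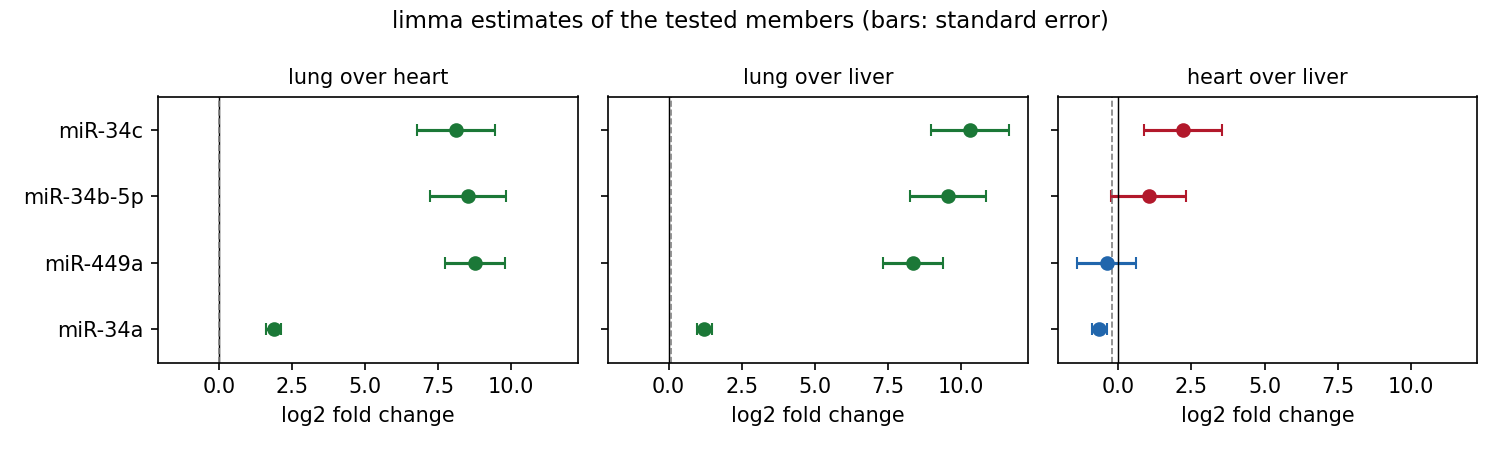
Log2 fold change (limma estimate, bars are the standard error) of the 4 tested entries in lung over heart, lung over liver and heart over liver, with a dashed line at the median of all 256 tested miRNAs. The entries of ciliated cells lie between 8.10 and 10.30 in the lung comparisons and miR-34a at 1.87 and 1.22, while in heart over liver the estimates run from -0.65 to 2.20.

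Between heart and liver, none of the 4 tested entries was called, where 19.9% of all tested miRNAs were called higher in heart and 27.0% higher in liver (limma). Of the 4, miR-34a alone passed 0.05, both before and after adjustment (adjusted p = 0.0453, limma), and its log2 difference of -0.65 lay under the fold minimum. The estimates were 2.20 for miR-34c (SE 1.33, adjusted p = 0.178), 1.03 for miR-34b-5p (SE 1.30, adjusted p = 0.524) and -0.40 for miR-449a (SE 1.02, adjusted p = 0.762). The spread within each of these tissues was wide, from 17.8 to 308 for miR-34c in heart alone, so a difference of this size could not be resolved. For miR-34b-5p the estimate was 2.97 (adjusted p = 0.0461) without horse 30 and -0.73 without horse 27, and for miR-34c it was 0.78 without the liver of horse 27.

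The family was made up differently in lung and in the other tissues. In lung, miR-34c took 77.1% ± 5.94 of the summed normalized counts of the 5 entries, miR-34b-5p 17.3% ± 3.93, miR-449a 3.12% ± 1.57 and miR-34a 2.41% ± 0.899 (SD, n = 4), and miR-449b between 0 and 0.193%. In heart, miR-34a took from 29.8% to 92.2% of the sum and miR-34c from 7.79% to 60.7%. In liver, miR-34a took from 73.0% to 100% and miR-34c at most 18.9%. miR-34c thus led in every lung library and miR-34a in every liver library, whereas in heart the leader differed between horses. Of all counts of known miRNAs in lung, miR-34c made up 0.618% ± 0.371 and miR-34b-5p 0.127% ± 0.0446 (SD, n = 4).

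Per read of miR-34c, miR-34a stood at 0.0403, 0.0467, 0.0209 and 0.0195 in the lungs of horses 27, 30, 32 and 34. In heart the ratio was 0.685, 11.8, 6.41 and 0.491, and in liver 3.86, 9.30 and 4.91 in horses 30, 32 and 34. No heart or liver ratio came near the lung ratios, and the low pair in heart was again horses 27 and 34. The log2 ratio in lung minus that in heart was -6.25 (exact two-sided permutation p = 0.0286, the smallest possible with 4 against 4; adjusted p = 0.143 over the 5 ratio comparisons tested). Exchanging labels within horses gave an exact permutation p of 0.125, the smallest that 4 pairs allow. Against liver the difference was -7.57 (exact permutation p = 0.0571, the smallest possible with 4 against 3, adjusted p = 0.143), so neither difference passed the threshold after adjustment, although every lung ratio lay below every heart and liver ratio.

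The ratio of miR-34c to miR-34b-5p, both from 1 locus, varied between horses. It was 4.56, 3.10, 4.62 and 6.52 in the lungs of horses 27, 30, 32 and 34, then 3.94, 3.09 and 6.42 in the hearts of horses 27, 32 and 34, and 3.12, 4.63 and 4.50 in the livers of horses 30, 32 and 34. In lung, where the pair had 22609 to 50239 reads per library, miR-34b-5p was 18.0% of the reads of both (exact 95% binomial interval 17.5 to 18.5) in horse 27, 24.4% (24.0 to 24.8) in horse 30, 17.8% (17.5 to 18.1) in horse 32 and 13.3% (13.0 to 13.6) in horse 34. Horses 27 and 32 could not be separated by counting error, and horses 30 and 34 lay apart from them and from each other.

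In the 6 heart and liver libraries where both miRNAs were listed, the pair had 45 to 311 reads. miR-34b-5p made up 20.3% of them in the heart of horse 27 (interval 15.9 to 25.2), 24.4% in the heart of horse 32 (12.9 to 39.5) and 13.5% in the heart of horse 34 (8.99 to 19.1). In liver it made up 24.3% in horse 30 (17.3 to 32.4), 17.8% in horse 32 (8.0 to 32.1) and 18.2% in horse 34 (11.5 to 26.7). Each of these intervals contained the share found in the lung of the same horse, and each also contained that of another horse. These intervals cover counting error only, since reads amplified by PCR without molecular identifiers are not independent molecules, and libraries in which a member had fewer than 6 reads could not contribute. Over libraries, the log2 ratio of miR-34c to miR-34b-5p differed by 0.087 between lung and heart (exact two-sided permutation p = 0.686, adjusted p = 0.686) and by 0.18 between lung and liver (p = 0.629, adjusted p = 0.686), both less than the SD of 0.44 between lungs, though tests of 4 against 3 cannot go below p = 0.0571.

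**Figure D3:**
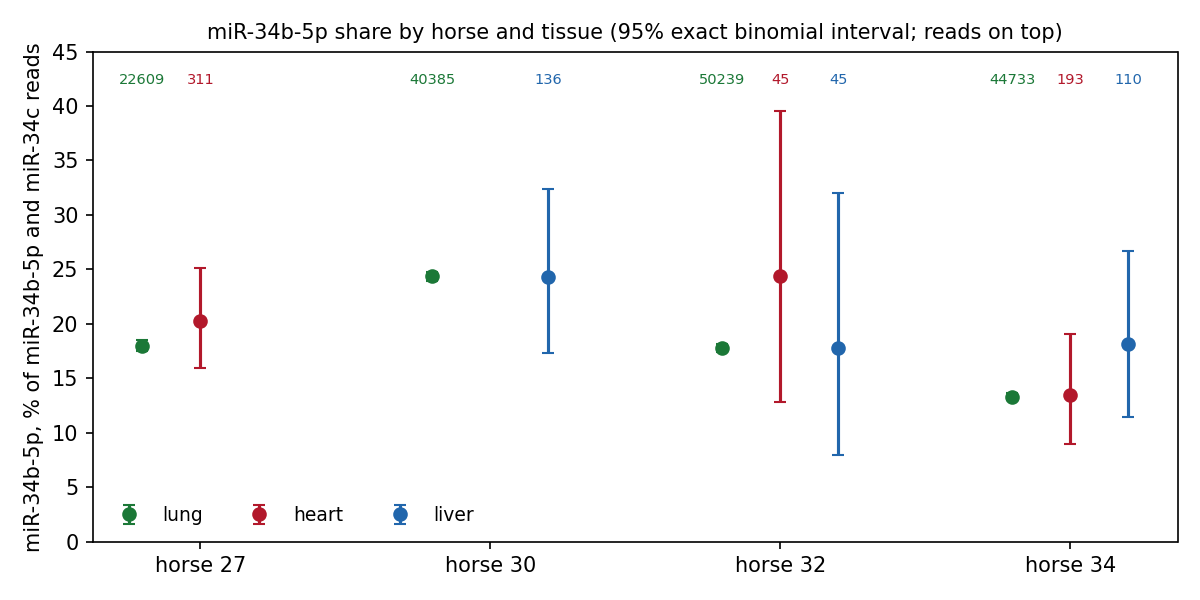
Share of miR-34b-5p among the reads of miR-34b-5p and miR-34c (percent) by horse, with exact 95% binomial intervals and the number of reads of both on top, for the libraries in which both were listed. Lung shares run from 13.3% in horse 34 to 24.4% in horse 30, and the wide intervals of heart and liver each contain the lung share of their own horse.

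The ratio of miR-449a to miR-34c joins the 2 loci. In lung it was 0.0344, 0.0654, 0.0537 and 0.0133 in horses 27, 30, 32 and 34. It was lowest in horse 34, with the highest miR-34c, and next lowest in horse 27, with the lowest miR-34c. Outside lung it could be formed in 3 libraries only, at 0.0484 in the heart of horse 27, 0.107 in the liver of horse 30 and 0.0667 in the liver of horse 34. The log2 ratio in lung minus that in liver was -1.25 (4 against 2 libraries, exact two-sided permutation p = 0.133, the smallest possible, adjusted p = 0.222), and with 1 heart library there was no test against heart.

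The small amounts outside lung can be read against the lung of the same horse. Summed over miR-34b-5p, miR-34c, miR-449a and miR-449b, lung held 18757, 26203, 36876 and 51216 normalized counts in horses 27, 30, 32 and 34. The hearts held 401.6, 17.8, 50.3 and 324.7, which is 2.14%, 0.0681%, 0.136% and 0.634% of the lung sum, and the livers 0, 118.3, 33.0 and 76.6, or at most 0.451%. Heart thus ranged over more than an order of magnitude between horses, and the horse lowest in heart, 30, was the highest in liver. miR-34a in heart was 16.1% to 40.3% of its level in the lung of the same horse and in liver 34.0% to 64.5%.

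The summed epithelial markers of heart had the same upper pair of horses, through the miR-200 members. The 6 markers miR-200a, miR-200b, miR-200c, miR-141, miR-429 and miR-205, which are known from epithelia of many organs, summed to 972.2, 316.6, 377.8 and 1008 normalized counts in the hearts of horses 27, 30, 32 and 34, against 66725 to 83600 in lung. The hearts of horses 27 and 34 were thus high in both sums and those of horses 30 and 32 low in both. Of the single markers, miR-200a, miR-200b and miR-200c were each highest in these 2 hearts. miR-205 was not, at 60.9, 29.7, 13.4 and 0 in horses 27, 30, 32 and 34, and miR-429 was above 0 in the heart of horse 27 only (16.2), while miR-141 was at 0 in all hearts. In liver the same markers summed to 5369 to 7500, with all 6 above 0 in every library. The summed leukocyte miRNAs were 7926 to 9759 in heart, 12200 to 21542 in liver and 29537 to 88115 in lung. These sums include miR-142-5p, which was listed at 0 in the lungs of horses 32 and 34 and the livers of horses 27, 30 and 32. In the remaining libraries it stood at 1381 to 11310. Summed hepatocyte miRNAs were 31208, 60382, 82575 and 153268 in the hearts of horses 27, 30, 32 and 34, and nearly all of this was miR-148a (29880 to 149991), which is not confined to hepatocytes and was lowest in horse 27 and highest in horse 34. miR-122, the defining hepatocyte miRNA, was at 1161, 737, 1059 and 3116 in the same order and miR-194 at 155.4, 99.6, 128.5 and 149.7, both highest in horses 27 and 34, while miR-885-5p lay between 10.4 and 12.3. The part of any of these cell types in the heart and liver values was not tested.

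**Figure D4:**
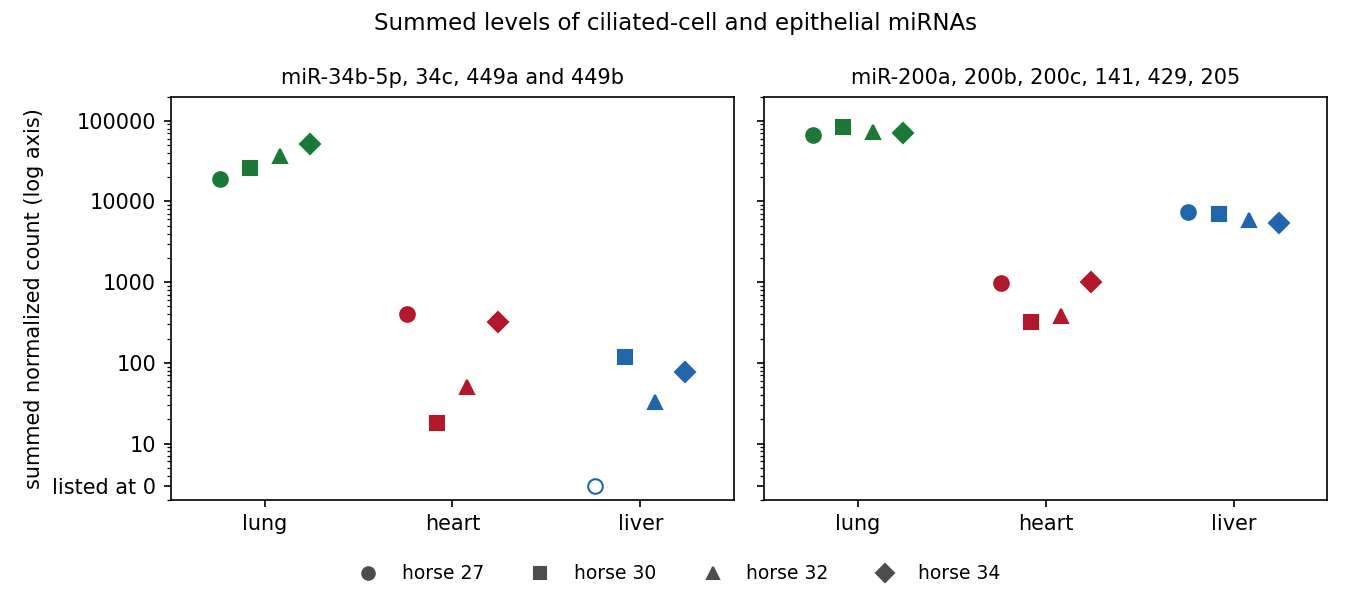
Summed normalized counts (log axis) of the 4 ciliated-cell miRNAs on the left and of 6 epithelial miRNAs on the right, by tissue, with 1 symbol per horse and an open symbol for a sum of 0. In heart, horses 27 and 34 are the upper pair in both panels, and in liver the epithelial sum stays between 5369 and 7500 while the ciliated-cell sum runs from 0 to 118.3.

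A wider list of epithelial miRNAs held 12 numbers, of which 10 were tested. In lung versus heart, 9 were called higher in lung and none lower, with a median log2 fold change of 6.63 against 0 for all tested miRNAs. In lung versus liver, 9 were called higher in lung and 1, miR-31 (log2 fold change -4.43), lower, with a median of 3.43 against 0.08. In heart versus liver none was called higher and 9 lower, with a median of -3.68 against -0.23. Of all tested miRNAs, 19.5% were called higher in lung than in heart, 25.0% higher in lung than in liver and 27.0% lower in heart than in liver. The most abundant of the list in lung were miR-200c (26090 ± 7710 normalized counts), miR-200b (24821 ± 4551) and miR-200a (19101 ± 7282, SD, n = 4), so that the lung mean of miR-34c was about that of miR-200c. For miR-200c the log2 fold changes were 7.79 over heart (SE 0.51, adjusted p = 1.63e-07, limma) and 5.35 over liver. In liver, the list spread to both sides of the highest miR-34c value of 82.9, with means of 2939 ± 651 for miR-200b and 2631 ± 576 for miR-200a, and of 25.5 ± 10.8 for miR-141, 21.4 ± 3.91 for miR-96 and 8.56 ± 4.06 for miR-205 (SD, n = 4).

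miR-34a belongs to a list of miRNAs that p53 is known to induce or to help process, of which 7 others were matched by name and tested. miR-34b and miR-34c were not entered on this list, so it does not show that a link to p53 is particular to miR-34a. The list also names miR-107, but the tested entries miR-107a and miR-107b were not matched and are left out of the counts and medians here. Of these, miR-107b was called lower in lung than in liver (log2 fold change -1.24, adjusted p = 0.00259, limma). Neither was called in another comparison. In lung versus heart, 2 of the 7 were called higher in lung, miR-16 (log2 fold change 1.22) and miR-194 (1.31), and none lower, with a median of 0.97 against 0. Of all tested miRNAs, 19.5% were called higher in lung and 19.1% higher in heart. The count of 2 rested on the scaling, at 6 with the same total per library and 1 with the same upper quartile, and it was 1 without horse 34. In lung versus liver, miR-143 (1.01), miR-15a (2.15) and miR-16 (1.93) were called higher in lung, and miR-194 (-6.73) and miR-215 (-7.38), which are known to be abundant in hepatocytes and gut epithelium, lower. The shares of all tested miRNAs were 25.0% higher in lung and 26.6% higher in liver. In heart versus liver, 2 were called higher in heart and 2 lower, and without horse 32, or with the same total per library, none was called higher in heart. Here the shares of all tested miRNAs were 19.9% higher in heart and 27.0% higher in liver. The most abundant of the 7 in lung were miR-143 (185416 ± 55742 normalized counts, SD, n = 4), miR-103, with values of 36505, 50230, 27063 and 0 in horses 27, 30, 32 and 34, and miR-16 (15589 ± 2969).

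The 8 tested miRNAs most like the summed family over the 12 libraries, by Pearson's r on log2(normalized count + 1), were miR-92b (r = 0.991), miR-153 (0.985), miR-155 (0.971), miR-200c (0.932), miR-138 (0.926), miR-211 (0.905), miR-15b (0.899) and miR-182 (0.890). The libraries share tissue and horse, so these values are a description, and they mainly follow the step between lung and the other tissues. The sum includes miR-34a, which took 73.0% to 100% of it in liver and 29.8% to 92.2% in heart. Likeness to the ciliated-cell entries alone was not computed. miR-92b stood at 1490 ± 190 normalized counts in lung, 39.7 ± 8.98 in heart and 41.2 ± 5.85 in liver (SD, n = 4), a nearly flat floor outside lung. miR-153 stood at 12.9, 12.4, 37.9 and 47.5 in the lungs of horses 27, 30, 32 and 34 and was listed at 0 in all heart and liver libraries. Like the ciliated-cell sum, miR-153 was higher in the lungs of horses 32 and 34 than in those of 27 and 30. This was not particular to miR-153. Of the epithelial list it also held for miR-141 (465.5, 670.8, 1139 and 2017 in horses 27, 30, 32 and 34), miR-200a, miR-429, miR-205 and miR-96. It did not hold for miR-200b, miR-200c, miR-182, miR-183 and miR-31. miR-155, known from activated leukocytes, stood at 3051 ± 473 in lung, 733 ± 84.0 in heart and 774 ± 212 in liver. miR-138 was listed at 0 in all hearts and at 165.6 to 627.9 in lung. Within the family, each entry's r with the log2 sum of the others over the 12 libraries was 0.960 for miR-449a, 0.941 for miR-34b-5p, 0.876 for miR-34c, 0.811 for miR-449b and 0.686 for miR-34a. For every entry but miR-34a itself, the sum of the others again held miR-34a.

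**Figure D5:**
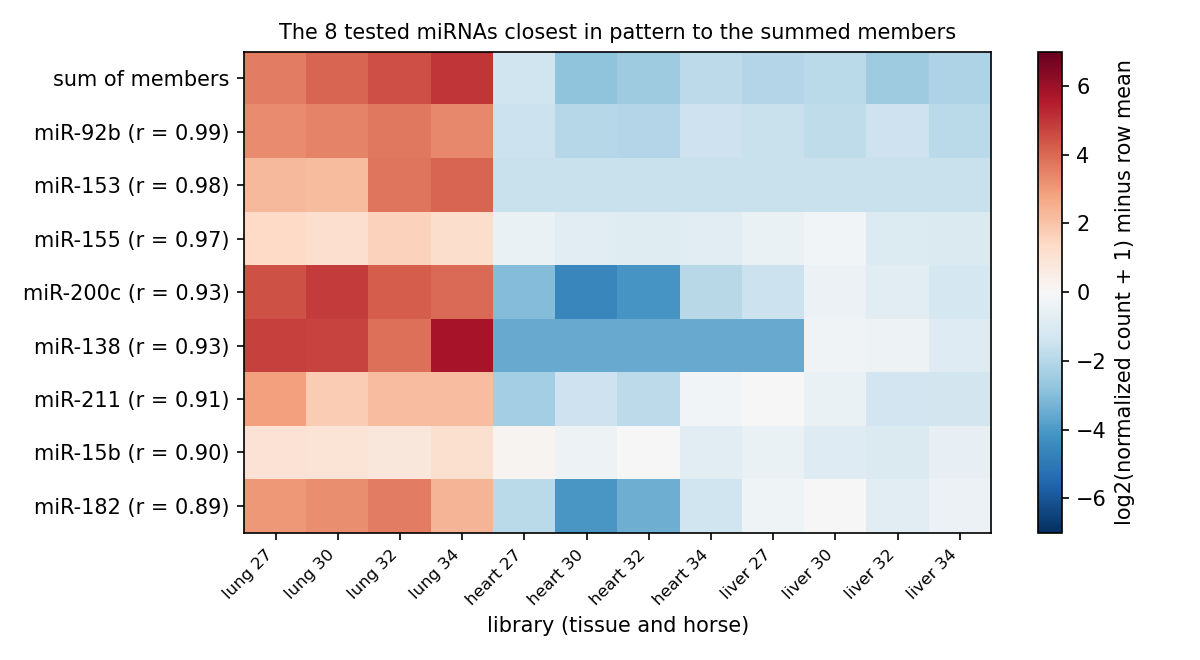
Log2(normalized count + 1) minus the mean of its row (colour scale) for the summed family (miR-34a included) and the 8 tested miRNAs with the highest Pearson's r to it, in the 12 libraries. The 4 lung columns are above the row mean in all rows, and the rows differ mainly in heart and liver, where miR-92b and miR-153 are nearly level.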

How the data were processed

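Small RNA of lung, heart and liver from 4 horses was measured in 12 libraries. By the study's methods, the authors trimmed reads with Trim Galore, counted them with sRNAbench against miRBase and EquCab3.0 at a minimum read count of 6, and used DESeq2, whereas the submitters' processing notes list BWA and Trimmomatic beside bcl2fastq, FastQC and DESeq2. The deposited values are a signal, counts that the authors divided by a DESeq2 size factor. The deposited table also holds the authors' own comparison as log2 fold changes with their errors, a test statistic (a score) and p-values, which were not used. The reads behind each value were derived from the lowest value above 0, taken as 6 reads, and every value was a whole multiple of the step within 0.01.

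A filter of 10 normalized counts or more in 4 or more libraries left 256 known miRNAs. Their values, as log2(normalized count + 1), entered limma 3.58.1 (R 4.3.3), with a trend in the variance, a mean per tissue over all 12 libraries and Benjamini-Hochberg adjustment. Single values and ratios were compared with exact two-sided permutation tests. Other steps ran in Python 3.11.15 (scipy 1.17.1, pandas 2.3.3, numpy 2.4.6, matplotlib 3.10.9), and the fit was tested on simulated data. The members and lists were chosen with earlier results of these data known. Named were all members, the 8 tested miRNAs most like their sum, and the 3 of each list with the highest lung mean, and other names were chosen after their values were seen. Samples are paired by horse number, which stands for 1 animal. The correlation of deviations from tissue means ran from -0.27 to 0.15 over 12 same-horse pairs (3 above 0.1) and from -0.27 to 0.36 over the 36 other pairs. Alternatives were another pseudocount (0.5 or 10), other filters, scalings and treatment of values at 0, the horse as a block, and leaving out each horse and library. Mature sequences, and entries named by sequence that may carry a seed of the family, were not analysed here.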

Additional observations from a re-analysis of the deposited data

Results flagged for a closer look

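Of 44 groups of 4 libraries tested with Dixon's criterion for 1 library far from the others, 1 was flagged. Chance flags about 1 in 20 groups, but that rate does not hold for groups with values tied at 0. The flagged group was miR-449a in heart, at 14.9 normalized counts (12 reads) in horse 27 and at 0 in the other 3 hearts. With 3 values tied at 0, the criterion flags any single value above 0. The flag therefore does not measure how far the heart of horse 27 stands apart. That heart was also the highest heart library for miR-34c (308 normalized counts) and miR-34b-5p (78.3). Without it, the log2 fold change of miR-449a in lung over heart was 9.77 in place of 8.77 (limma).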

How the results depend on the processing

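The ciliated-cell entries had at most 248 reads in any heart or liver library and often fewer than 6. Values there thus carry wide counting error. Every heart library held more reads in total than every lung library. Yet 1 read stood for 1.12 to 1.68 normalized counts in heart and for 0.618 to 1.13 in lung. The total therefore does not make heart the more sensitive tissue for these entries. With 4 libraries per tissue the ratio tests were limited, and their smallest possible p lay between 0.0286 and 0.133 (exact permutation). In lung versus heart and in lung versus liver, 4 entries were called with any library or horse left out and under every other alternative except the fit without a filter on low values, where miR-449b was called too (5 entries). Of the 4, miR-449a had passed that filter only through its lung libraries. The call of miR-449b rested on a spread lowered by its values tied at 0 in heart and liver. In heart versus liver the count was 0, and 1 with the same total per library, 1 without the fold minimum and 0 to 1 with libraries left out. There miR-34b-5p ranged from -0.73 to 2.97 and miR-449a from -1.87 to 0.56 with libraries left out, and miR-449a was 0.52 with values at 0 raised to the lowest listed value. With the horse as a replicate block, the log2 ratio of miR-34a to miR-34c in lung versus heart was -6.25 (exact p = 0.125 in place of 0.0286, the smallest p of each design), and the block changed no other call. Left out horse by horse, that ratio ranged from -6.97 to -5.57, with the smallest possible p of 0.1 in each case. The ratio of miR-34a to miR-34c in lung versus liver had an exact permutation p of 0.0286 before adjustment once all libraries were used, at -8.08 with a pseudocount of 10, -8.23 with values at 0 raised and -9.07 with a pseudocount of 1, the last chosen after seeing the data. In the same way miR-34c to miR-34b-5p in lung versus liver reached 1.14 with a pseudocount of 10, and miR-449a to miR-34c reached -3.17 with a pseudocount of 10 and -2.37 with values at 0 raised, where these values follow from what is put in for libraries at or near 0. In lung versus heart the sign of 2 ratios was not stable: miR-34c to miR-34b-5p was -0.42 with a pseudocount of 1 and -0.15 to 0.27 with horses left out, and miR-449a to miR-34c was 0.67 and -0.74 to 0.0302. By Spearman's rho, 4 of the 8 most similar miRNAs were among those named.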
